A study of Sorghum bicolor with 96 samples.

Results

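Unstressed sorghum leaves were compared over 4 times of day in the 12 control libraries labelled RTX430 of the cold experiment, out of 96 libraries in the series. The members were the control columns carrying that genotype and experiment in their names, with 3 libraries at each of zeitgeber times (ZT, hours after lights on) 1, 6, 9 and 15. Growth temperatures were 30 °C in the day and 20 °C in the night, and no temperature stress was given. RTX430 is described by the submitters as a temperature-sensitive sorghum line, and the study asked how the time of day and the genotype modify the response to cold or heat. The replicates are called biological in the labels' protocols, which do not say how many plants each holds. The length of the light period is not given in the sources used here, and ZT15 was treated as night. Night temperature, darkness and clock time cannot be told apart in this design. The treatment text names the earliest time ZT0, while the sample labels give ZT1, which was used.

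Plant leaves keep a circadian clock, a set of regulators that repress and activate each other over a daily cycle and that is set by light and temperature. Through it and through direct responses to light, many genes for photosynthesis, sugar metabolism, growth and stress protection reach their highest transcript level at a particular time of day. Sorghum is a C4 grass, in which carbon fixation is divided between mesophyll and bundle sheath cells. The deposited identifiers could not be paired with gene names or roles, so genes are given here by identifier, and the light, clock and C4 genes among them are not singled out.

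The libraries held 1575838 to 7110135 counts, with 19114 to 21530 genes detected, and the 18248 genes tested took at least 99.73% of the counts of every library. Genotype labels did not match between the experiments. With a gene called on above a median of 3 counts scaled to a common library size (CPM, here with library totals) and off under 0.05 CPM, 250 genes switched between the RTX430 label of the cold experiment and the same label of the heat experiment. By contrast, 6 genes switched between the SC224 label of the cold experiment and the RTX430 label of the heat experiment. The 59 genes that were on under the cold RTX430 label and under no other label summed to 394 to 966 CPM in every one of the 12 libraries. The 212 genes on elsewhere and off here summed to 6.16 to 71.6 CPM. These genes were chosen by the medians of the same libraries, so the sums are descriptions. The files do not settle which line the label belongs to, and RTX430 is used below as the label.

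Time of day touched about as many genes as it left uncalled. In edgeR's joint test over the 4 times, 9213 of 18248 genes (50.5%) were called at a Benjamini-Hochberg adjusted p under 0.05, the threshold used throughout. ZT9 and ZT15 differed from ZT1 in the most genes. Between ZT15 and ZT1, 7912 genes (43.4%) were called, of which 4293 (23.5%) were higher at ZT15 and 3619 (19.8%) lower. In this pair 6545 genes (35.9%) were called with at least a 2-fold difference and 3349 (18.4%) with at least a 4-fold one. Between ZT9 and ZT1 the number was 7406 (40.6%), with 3991 (21.9%) higher at ZT9 and 3415 (18.7%) lower. Here 6123 genes (33.6%) differed at least 2-fold and 3123 (17.1%) at least 4-fold. Fewer separated ZT6 from ZT1, with 4440 called (24.3%), of which 2447 (13.4%) were higher at ZT6 and 1993 (10.9%) lower. Of these, 3479 (19.1%) differed at least 2-fold and 1294 (7.09%) at least 4-fold.

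The afternoon pair differed least, since 1285 genes (7.04%) were called between ZT9 and ZT6, of which 626 (3.43%) were higher at ZT9 and 659 (3.61%) lower. The difference was at least 2-fold in 1068 (5.85%) and at least 4-fold in 439 (2.41%). The count of 1285 was 851 without ZT6 replicate 3 and 804 in a fit to the 12 libraries alone. From ZT6 to ZT15, 4350 genes (23.8%) were called, with 2136 (11.7%) higher at ZT15 and 2214 (12.1%) lower, and 3336 (18.3%) and 1311 (7.18%) of them passed 2-fold and 4-fold. From ZT9 to ZT15, 2585 genes (14.2%) were called, with 1216 (6.66%) higher at ZT15 and 1369 (7.5%) lower. At least 2-fold were 1983 (10.9%) and at least 4-fold 867 (4.75%). All percentages here are of the 18248 genes tested.

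The even split of directions depended on scaling. Counts were scaled with TMM factors, which rose from 0.604 to 0.811 at ZT1 to 1.31 to 1.48 at ZT15. Scaled by library totals alone, the median log2 difference over the tested genes moved from 0.09 to 1.09 between ZT15 and ZT1, and the genes called higher at ZT15 went from 54.3% to 87.5% of the calls. The share called higher also moved from 55.1% to 82.6% for ZT6 against ZT1, from 53.9% to 81.9% for ZT9 against ZT1, from 48.7% to 67.0% for ZT9 against ZT6, from 49.1% to 83.5% for ZT15 against ZT6 and from 47% to 71.9% for ZT15 against ZT9. A direction below is therefore one relative to the bulk of the genes. In bulk tissue, fewer cells of a type and less RNA per cell cannot be told apart.

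With TMM scaling, genes with a single clear maximum were mostly those of early morning. A gene was counted as highest at a time when it was called higher there than at each of the other 3 times, and as lowest in the same way. By this rule, 1409 genes (7.72%) were highest at ZT1 and 1725 (9.45%) were lowest there. At ZT15, 388 genes (2.13%) were highest and 557 (3.05%) were lowest. ZT9 held 160 highest genes (0.877%) and 182 lowest (0.997%). ZT6 held 15 highest genes (0.0822%) and 27 lowest (0.148%). With only 4 times sampled, a maximum between them cannot be seen, and most called genes had no time that stood apart from all others.

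**Figure D1:**
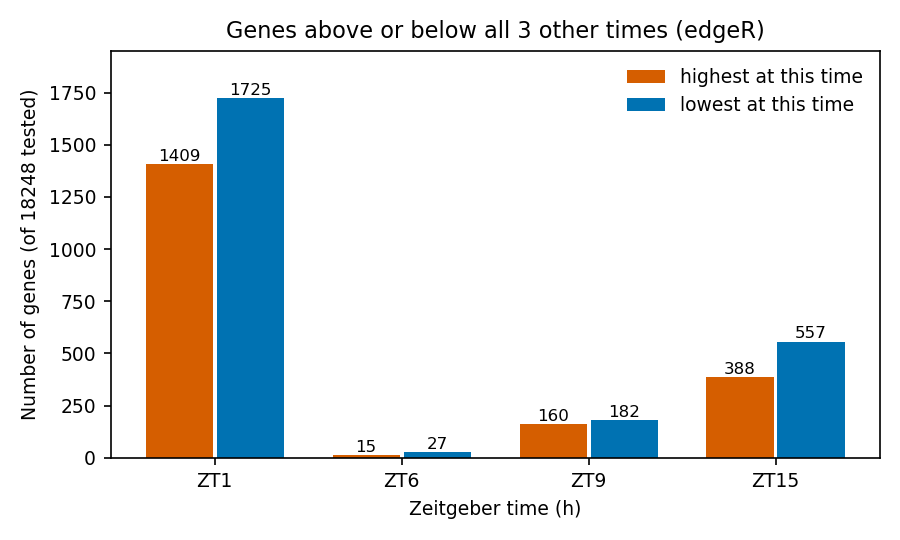
Number of genes called above (orange) or below (blue) all 3 other times at each zeitgeber time (h), by edgeR on 18248 genes. ZT1 holds 1409 highest and 1725 lowest genes, and ZT6 holds 15 and 27.

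These counts moved with the scaling and with single libraries. With library totals alone, 492 genes were highest and 3767 lowest at ZT1, while 1145 were highest and 220 lowest at ZT15. The order of ZT1 and ZT15 by genes highest thus turned over with that scaling. The 15 genes highest at ZT6 became 5 without ZT6 replicate 3 and 6 without ZT9 replicate 2. The 27 lowest at ZT6 became 15 without ZT6 replicate 1 and 17 without ZT9 replicate 2. The 160 highest at ZT9 became 104 without ZT6 replicate 3 and 94 without ZT9 replicate 3, and the 182 lowest there became 115 without the latter.

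The times of largest and smallest mean formed opposed pairs. Among the 9213 genes called jointly, the largest group mean fell at ZT1 in 3434 genes (37.3%), at ZT15 in 2697 (29.3%), at ZT9 in 2203 (23.9%) and at ZT6 in 879 (9.54%). The smallest mean fell at ZT1 in 3910 genes (42.4%), at ZT15 in 2332 (25.3%), at ZT9 in 2076 (22.5%) and at ZT6 in 895 (9.71%). The most frequent pattern was a rise from ZT1 to ZT9, seen in 1907 genes (20.7%), followed by a rise from ZT1 to ZT15 in 1720 (18.7%). The opposite patterns, largest at ZT1 and smallest at ZT9 or ZT15, held 1656 (18%) and 1547 genes (16.8%). Under the stricter rule, 119 genes were both highest at ZT1 and lowest at ZT9, and 116 were highest at ZT9 and lowest at ZT1.

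The daily change was above 2-fold for most called genes. The range, taken as the largest minus the smallest group mean on the log2 scale, had a median of 1.99 over the called genes and 1.35 over all tested genes. Among called genes, 8140 (88.4%) spanned at least 2-fold, 4591 (49.8%) at least 4-fold and 1140 (12.4%) at least 16-fold. Among genes not called, 39.7% also spanned at least 2-fold. In simulated counts with 200 genes changed, the joint test recovered 25% of 2-fold changes and 82% of 4-fold ones. The calling favoured wide ranges there, though the rates need not hold in the data, where many more genes were called. Of the called genes, 1144 had 3 counts or fewer in each library of some time, so that their fitted range rests on a floor. The genes highest at ZT9 had the widest ranges of the larger classes, with a median of 4.21, against 2.41 for those highest at ZT1 and 2.45 for those highest at ZT15. A time at the floor occurred in 43 of the 160 genes highest at ZT9. It occurred in 144 of the 1409 highest at ZT1 and in 75 of the 388 highest at ZT15. Since the classes were chosen on the same libraries, these medians are descriptions.

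More abundant genes were called more often. When the tested genes were divided by mean level into 5 equal groups, the joint test called 33.5% of the lowest group and 65.6% of the highest. The median range was smaller in the fourth group (1.01) than in the lowest (2.01) or the highest (1.33). Some genes passed between the floor and a detectable level. At ZT1, 29 genes were above 3 counts in every library and at or under 3 in every library of the other times, and 149 genes were at or under 3 only there. At ZT15 the numbers were 79 and 12. These numbers use raw counts, scaled neither for depth nor by TMM, over all 34129 genes deposited. Of the 29 genes, 17 were also called highest at ZT1, and of the 79, 27 were called highest at ZT15.

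The clearest morning gene was Sobic.004G004800. At ZT1 it stood at 1030, 671 and 616 CPM (TMM-scaled). It was at 1.53, 11.2 and 4.55 CPM at ZT6, at 0, 0.188 and 0.509 CPM at ZT9, and at 10.1, 2.11 and 3.27 CPM at ZT15. All 3 morning libraries thus lay far above the other 9. From ZT1 to ZT6 its log2 level fell by 7.06 (SE 0.716, adjusted p 1.72e-09 by edgeR), and its mean at ZT1 was at least 668-fold higher than at ZT9, where every library was at or under the floor of 3 counts per library. It was also called lowest at ZT9, with an adjusted p of 0.00277 against ZT15. That second call was lost in 2 of 19 alternatives, of which 1 left out the library farthest from its group at each day time (ZT1 replicate 3, ZT6 replicate 2 and ZT9 replicate 1), with an adjusted p of 0.0731, and the other fitted the 12 libraries alone with a replicate block, with 0.0515. Sobic.010G246400, the next by size, was at 19.5 and 17.7 CPM in 2 of the ZT1 libraries and at 0 in replicate 3. Outside ZT1 it did not exceed 0.266 CPM. The groups therefore overlapped at 0 although each contrast was called, the weakest with an adjusted p of 0.000128.

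The first 2 genes by size among those lowest at ZT1 were at 0 there and measurable later. Of all 1725 genes lowest at ZT1, 196 had a time at which every library was at or under the floor. Sobic.005G196100 had no count in any ZT1 library. It stood at 16.1, 20.3 and 21.6 CPM at ZT6, at 39.5, 29.5 and 30.1 CPM at ZT9, and at 6.92, 8.58 and 9.99 CPM at ZT15. No later library overlapped those of ZT1, and the mean at ZT9 was at least 38.2-fold higher than the floor of ZT1. Sobic.009G063301 was likewise at 0 in all ZT1 libraries, and at 1.02, 9.82 and 7.28 CPM at ZT6. Its values at ZT9 were scattered, at 4.18, 13.9 and 47.9 CPM, and those at ZT15 were 12.0, 9.48 and 5.99 CPM. The mean at ZT9 was at least 25.4-fold above the floor of ZT1, and that at ZT6 at least 6.99-fold.

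The first 2 genes by size among those highest at ZT6 had ZT1 as their nearest time. Sobic.008G157100 stood at 20.9, 8.0 and 22.2 CPM at ZT6 and at 2.83, 4.73 and 2.83 CPM at ZT1. It was at or under 1.53 CPM in every library of ZT9 and ZT15. All ZT6 libraries were above all others, replicate 2 by the least, and the log2 difference from ZT1 was 2.25 (SE 0.442, adjusted p 0.000202 by edgeR). Sobic.009G246200 was tighter at ZT6, at 15.3, 13.5 and 15.6 CPM, against 4.09, 4.14 and 2.83 CPM at ZT1. The log2 difference was 1.98 (SE 0.50, adjusted p 0.00297 by edgeR).

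Sobic.003G276400 had a midday minimum. Its ZT6 libraries were at 5.10, 9.37 and 2.18 CPM, against 40.9, 42.6 and 59.5 CPM at ZT1 and 70.2, 110 and 35.1 CPM at ZT9. At ZT15 it stood at 135, 147 and 149 CPM. The groups did not overlap at ZT6, and the nearest time, ZT1, was 3.11 higher on the log2 scale than ZT6 (SE 0.412, adjusted p 4.06e-07 by edgeR). Sobic.006G192100 was called lowest at ZT6 with an adjusted p of 0.0475 against ZT1, but the call was lost in 14 of 19 alternatives, with adjusted p values up to 0.252. Its main feature was a night level of 64.4, 57.9 and 53.8 CPM at ZT15 against at most 2.32 CPM in any day library.

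Sobic.007G210801 was the clearest afternoon gene. It stood at 242, 393 and 239 CPM at ZT9, and no library of another time exceeded 4.34 CPM. Against ZT6 its log2 level was 6.75 higher (SE 0.576, adjusted p 2.89e-10 by edgeR), and by ZT15 it had fallen by 6.96 (SE 0.581, adjusted p 1.02e-10). Sobic.002G287000 was more scattered, at 45.5, 37.9 and 135 CPM at ZT9 and 6.92, 1.35 and 2.36 CPM at ZT15. Its libraries at ZT1 and ZT6 were at or under 1.09 CPM. Sobic.009G249600 ran the other way. It was at 363, 471 and 322 CPM at ZT1, at 18.6, 32.7 and 31.8 CPM at ZT6, at 0.465, 0.563 and 0 CPM at ZT9, and at 81.7, 29.5 and 41.6 CPM at ZT15. The ZT1 mean was at least 333-fold above the floor of ZT9, and the ZT15 mean at least 43.9-fold.

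**Figure D2:**
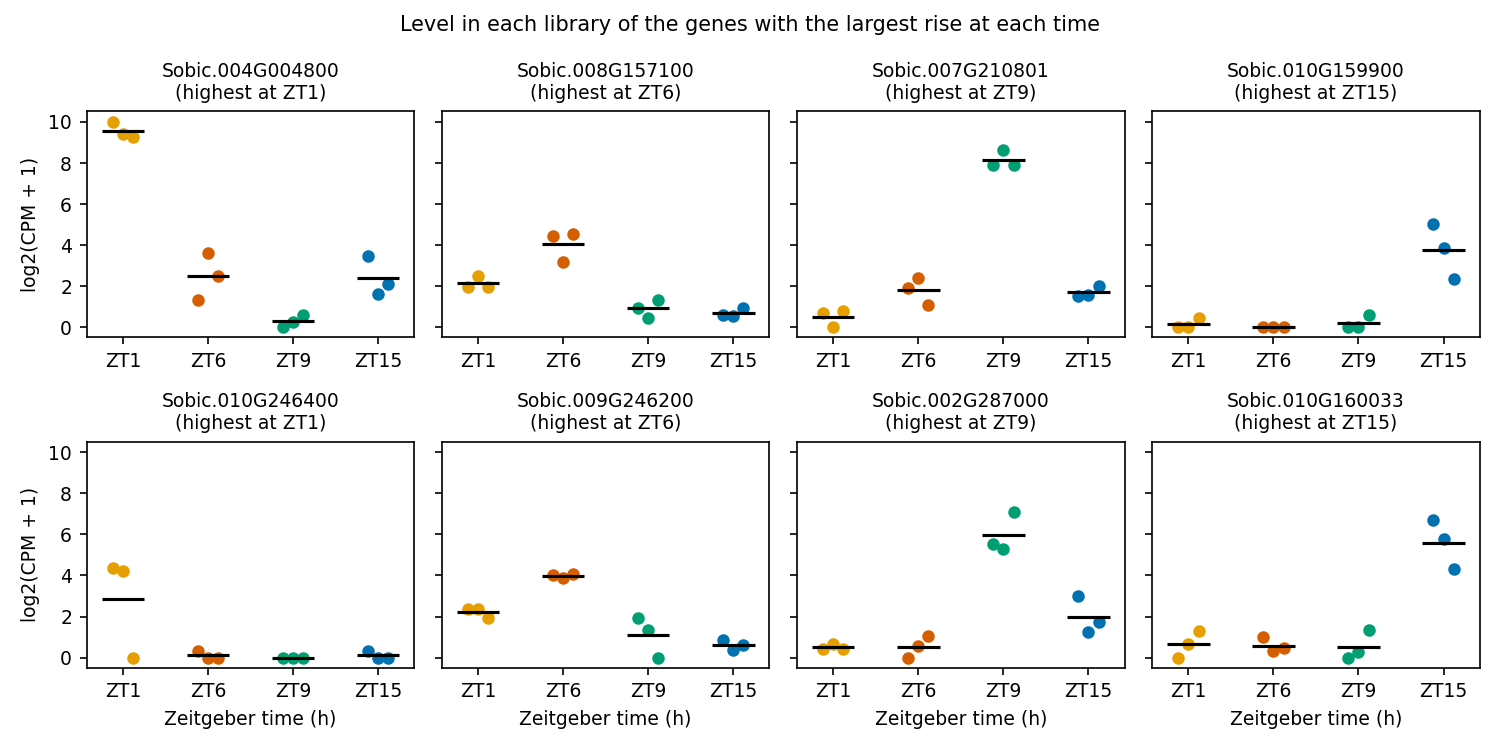
Level in each library, as log2(CPM + 1) with TMM scaling, against zeitgeber time (h) for the 2 genes with the largest rise at each time. Points are libraries, 3 per time, and lines are means of the plotted values. Sobic.010G246400 is at 0 in 1 of its 3 ZT1 libraries.

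The first 2 genes by size among those highest at ZT15 varied between replicates, although the median SD of log2 levels over genes was smaller at ZT15 (0.287) than at the day times (0.377 to 0.45). Sobic.010G160033 was at 103, 53.7 and 18.9 CPM at ZT15 and at or under 1.53 CPM in all day libraries. The ZT15 libraries were all above the rest, with a log2 difference of 6.46 from ZT1 (SE 0.91, adjusted p 8.29e-06 by edgeR). Sobic.010G159900 was at 32.2, 13.7 and 4.18 CPM at ZT15 and at or under 0.509 CPM in the day. It was called by edgeR against each day time (largest adjusted p 0.000793), while the largest adjusted p in DESeq2 was 0.146. Sobic.003G349100 was at 0 in all 3 ZT15 libraries. It was measured at 8.80, 10.0 and 20.5 CPM at ZT1, at 28, 28.1 and 20.9 CPM at ZT6 and at 24.6, 32.3 and 9.68 CPM at ZT9, and its ZT6 mean was at least 43.1-fold above the night floor.

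Sobic.003G209900 led the genes lowest at ZT15 and was scattered by day. Its ZT1 libraries were at 7920, 4990 and 506 CPM, those of ZT6 at 7110, 300 and 14600 CPM, and those of ZT9 at 8160, 256 and 1910 CPM. At ZT15 it was at 3.72, 9.63 and 5.63 CPM. The lowest day library was thus still above the highest night library. The nearest day time, ZT9, exceeded ZT15 by 9.06 on the log2 scale (SE 1.54, adjusted p 4.84e-05 by edgeR).

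At the other extreme, some abundant genes barely moved. Among genes with a mean of at least 100 CPM, Sobic.010G013200 had the smallest range of means, 0.101 on the log2 scale. Its group means were 139 ± 7.33, 137 ± 22.6, 129 ± 21.5 and 135 ± 11.8 CPM (SD, n = 3) from ZT1 to ZT15. Sobic.008G132700 followed, with means from 144 ± 30.4 CPM at ZT9 to 158 ± 22 CPM at ZT15. Both were chosen for their small range on these libraries.

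By day the libraries were dominated by few genes, and at night the counts were spread more evenly. The 100 most abundant genes of each library held 51.9%, 43.7% and 40.9% of its counts at ZT1, and 46.7%, 32.5% and 46.5% at ZT6. They held 43.3%, 31.3% and 37.95% at ZT9 and 29.7%, 24.2% and 24.3% at ZT15. Every night library lay below every day library, while the day times overlapped. Means were 45.5 ± 5.7, 41.9 ± 8.16, 37.5 ± 6.0 and 26.1 ± 3.16% (SD, n = 3). Over all 369600 assignments of the libraries to times, the exact permutation p was 0.0264. It was 0.0829 without ZT15 replicate 2 and 0.0824 without ZT15 replicate 3. For a pair of times the smallest p that 3 against 3 libraries allow is 0.1, which ZT15 reached against each day time in a two-sided exact permutation test.

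The same order held for narrower and wider sets. The 10 most abundant genes held 17.8 ± 2.4, 14.1 ± 3.04, 11.9 ± 1.92 and 7.97 ± 2.52% from ZT1 to ZT15 (SD, n = 3, exact permutation p 0.0102). The 1000 most abundant held 74.8 ± 3.03, 69.1 ± 4.48, 64.7 ± 4.4 and 56.2 ± 2.22% (SD, n = 3, exact permutation p 0.00325). To cover 50% of the counts took 87, 163 and 199 genes at ZT1, and 134, 376 and 140 at ZT6. It took 184, 453 and 316 genes at ZT9 and 540, 738 and 724 at ZT15.

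**Figure D3:**
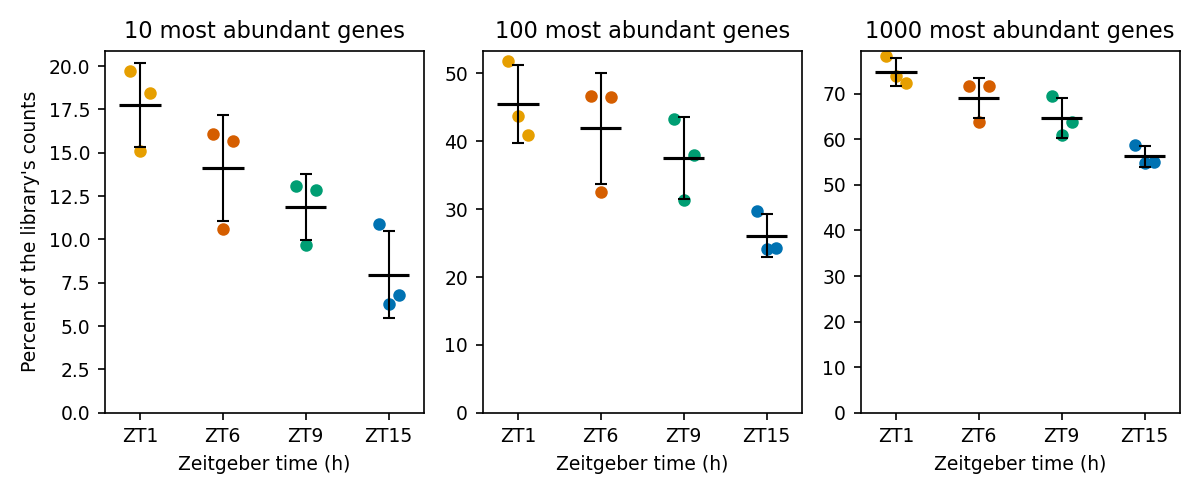
Percent of each library's counts held by its 10, 100 and 1000 most abundant genes, against zeitgeber time (h). Points are libraries, lines are means and bars are SD (n = 3). For the 100 most abundant genes all ZT15 libraries (24.2% to 29.7%) lie below all day libraries (31.3% to 51.9%).

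Shares of counts are not per transcript length, so they rank genes by sequencing output and not by transcript number. Sobic.009G132900 had the largest mean share at ZT1, ZT6 and ZT15. It held 4.65%, 3.97% and 4.81% of the counts at ZT1, and 2.96%, 2.35% and 2.59% at ZT6. At ZT9 it held 0.679%, 0.851% and 0.665%, and at ZT15 1.93%, 1.44% and 1.62%. The 4 times did not overlap for this gene, and ZT9 was its low point. The log2 level fell by 3.34 from ZT1 to ZT9 (SE 0.36, adjusted p 1.77e-09 by edgeR), and the difference between ZT15 and ZT9 was 0.91 (SE 0.331, adjusted p 0.0593).

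Sobic.010G160700 followed a similar course. Its shares were 3.87%, 3.06% and 3.23% at ZT1, and 2.20%, 1.38% and 2.11% at ZT6. They were 0.475%, 0.194% and 0.286% at ZT9, and 1.55%, 0.612% and 0.686% at ZT15. By share, ZT1 stood above all other libraries and ZT9 below them, while ZT6 and ZT15 overlapped. With TMM scaling ZT9 and ZT15 overlapped too, since ZT9 replicate 1 was at 4880 CPM and ZT15 replicates 2 and 3 at 4150 and 4720 CPM. Neither ZT15 against ZT9 (adjusted p 0.138) nor ZT6 against ZT1 (adjusted p 0.0921) was called by edgeR. From ZT1 to ZT9 its log2 level fell by 4.08 (SE 0.626, adjusted p 2.01e-06 by edgeR).

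Sobic.002G384400 moved from a minor gene to the leading one within the day. It held 0.0069%, 0.00496% and 0.00327% of the counts at ZT1, and 0.106%, 0.25% and 0.114% at ZT6. By ZT9 it held 1.67%, 2.06% and 1.58%, and at ZT15 1.15%, 0.898% and 1.03%. By mean share it ranked 2323, 84, 1 and 2 at the successive times. The log2 rise from ZT1 to ZT9 was 7.68 (SE 0.674, adjusted p 1.53e-11 by edgeR), and ZT15 and ZT9 differed by -1.06 (SE 0.508, adjusted p 0.173).

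Sobic.001G177000 was a gene of the day. It held 1.79%, 1.35% and 0.577% at ZT1, 1.87%, 0.857% and 1.80% at ZT6, and 1.75%, 1.02% and 1.46% at ZT9. At night it held 0.0524%, 0.0697% and 0.0816%. The day libraries overlapped each other and all lay above the night libraries. The log2 level fell by 5.28 from ZT1 to ZT15 (SE 0.658, adjusted p 5.32e-08 by edgeR), while ZT9 and ZT1 differed by -0.57 (SE 0.55, adjusted p 0.434).

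**Figure D4:**
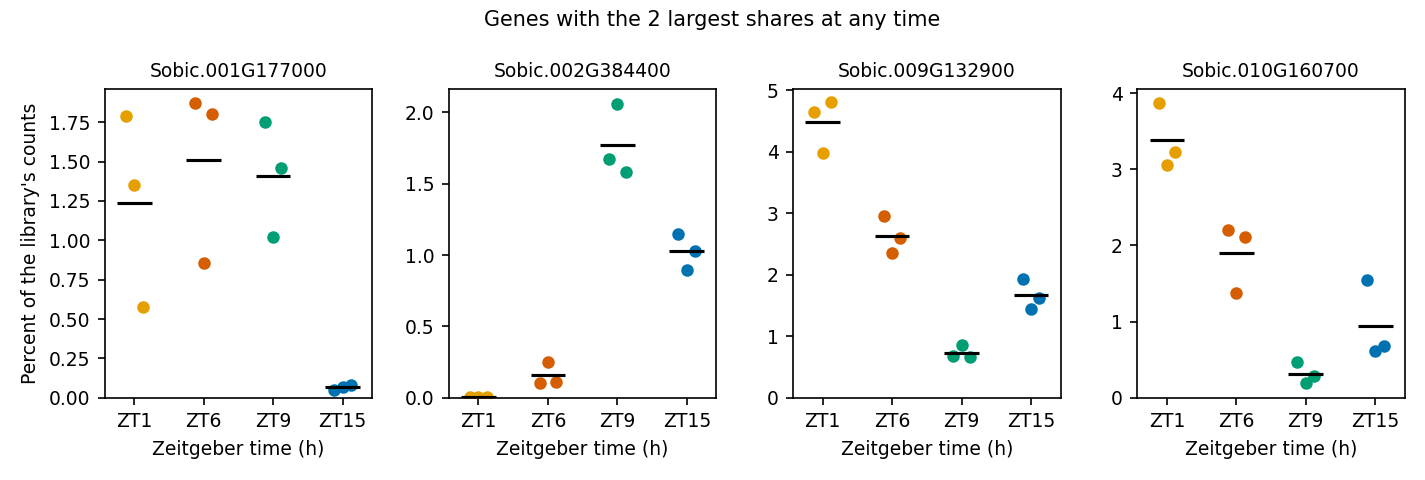
Percent of each library's counts held by the 4 genes that rank first or second by mean share at any time, against zeitgeber time (h). Points are libraries, 3 per time, and lines are means. Sobic.002G384400 goes from 0.00504% at ZT1 to 1.77% at ZT9, and Sobic.001G177000 from 1.41% at ZT9 to 0.0679% at ZT15.

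The sets of abundant genes were partly shared. Ranked by mean share, 47 genes were among the 100 most abundant at all 4 times, out of 159 that were so at any time. ZT1 and ZT6 shared 77 of their 100, ZT6 and ZT9 84, and ZT9 and ZT15 66. At ZT15, 21 genes were in the set at that time only, and 19 genes were in it at all 3 day times but not at ZT15. Of the 100 at ZT1, 77 were called in the joint test. The 100 at ZT15 held 67 called genes. Against these stand 50.5% of all tested genes and 65.6% of the most abundant group.

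A group of genes that weighed heavily by day held a smaller share at night. The 557 genes lowest at ZT15 held 15.3 ± 3.36% of the counts at ZT1, 20.6 ± 4.22% at ZT6 and 17.3 ± 3.41% at ZT9, against 3.59 ± 0.227% at ZT15 (SD, n = 3). The 388 genes highest at ZT15 held 4.06 ± 0.242% of the counts there and 0.612 ± 0.0903% at ZT1. The 1409 genes highest at ZT1 held 26 ± 4.3% there, 12.3 ± 1.07% at ZT6, 6.77 ± 1.13% at ZT9 and 11.7 ± 0.669% at ZT15. These classes were chosen on the same libraries, and their shares describe their weight only.

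Libraries of distant times differed more than replicates did, though replicates were far apart. The percent of counts that would have to move between genes to make a pair of libraries equal had a median of 24.1% within ZT1, 31.1% within ZT6, 24.9% within ZT9 and 17.4% within ZT15. Between ZT1 and ZT9 the median was 44.4%, and between ZT1 and ZT15 it was 42.2%. ZT6 and ZT9 differed by 31.8%, close to the spread within ZT6. Among the 100 most abundant genes, 19 at ZT6 and 18 at ZT9 differed at least 4-fold between replicates, against 11 at ZT1 and 7 at ZT15.

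The times assigned here were compared with the control libraries of the other 3 groups, whose contrasts did not choose the genes. The SC224 libraries did share the low-count filter and the estimate of the spread, and with the 12 libraries fitted alone 1212 genes were highest at ZT1 in place of 1409. Of the 1409 genes highest at ZT1, 98.0% had their largest mean at ZT1 in the SC224 controls of the cold experiment, 88.8% in the RTX430 controls of the heat experiment and 95.3% in the Macia controls, the last 2 shares being of the 1375 genes tested in the heat experiment. Over all tested genes the shares were 34.3%, 31.6% and 32.6%. For genes highest at ZT9 the shares were 93.1%, 89.9% and 96.2%, against 21.6%, 18.1% and 18.9% of all genes. For genes highest at ZT15 they were 87.6%, 79.2% and 77.1%, against 27.6%, 28% and 29.1%. Fewer genes passed the full rule of being called above each other time there. It was met by 75%, 41.8% and 52.8% of the genes highest at ZT1, against 9.16%, 5.49% and 6.09% of all genes. It was met by 55%, 37.7% and 29.6% of those highest at ZT9, against 0.964%, 0.595% and 0.391% of all genes, and by 34.5%, 13.6% and 21.3% of those highest at ZT15, against 1.85%, 0.896% and 1.03%. All 15 genes highest at ZT6 had their largest mean at ZT6 in each of these groups, against 16.4%, 22.3% and 19.4% of all genes. The full rule was met there by 8, 3 and 12 of the 15, against 0.285%, 0.332% and 0.225% of all genes. The genes lowest at ZT15 kept that time as their smallest mean in 94.6%, 94.2% and 94.0%, against 23.7%, 23.1% and 26.4% of all genes.

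**Figure D5:**
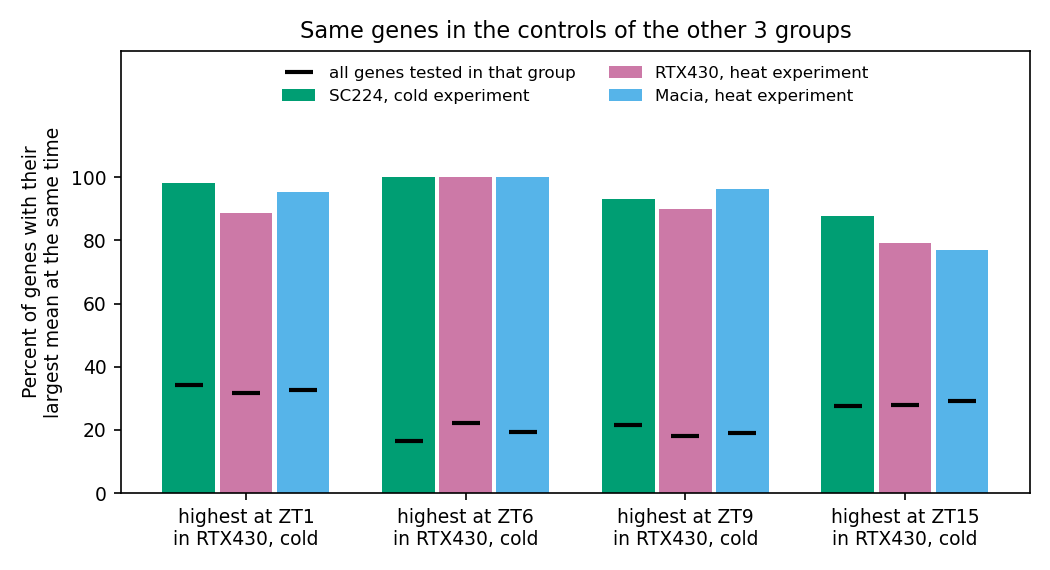
Percent of the genes highest at each time here that have their largest group mean at the same time in the controls of the other 3 groups. Bars are those groups and black lines the percent over all genes tested in them. The bars lie between 77.1% and 100%, and the lines between 16.4% and 34.3%.

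A difference in daily course from the SC224 controls of the cold experiment was called in few genes. The joint test of the time-by-genotype interaction called 105 of 18248 genes (0.575%) by edgeR, and 1542 had an unadjusted p under 0.05. DESeq2 called 282. The number was 68, 46 and 66 without RTX430 ZT1 replicate 1, 2 or 3, and 7 in a fit to the 24 control libraries alone. Some of the 105 genes were near 0 in SC224 after ZT1, with an SD at ZT1 above their mean. As an example, Sobic.008G065800 was at 10.1 ± 17.5 CPM in SC224 at ZT1 (SD, n = 3) and at 0 at the other times. In RTX430 its means were 43 to 66.4 CPM. How many of the 105 were of this kind was not counted.

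The leading gene was Sobic.010G162500 (adjusted p 2.79e-06 by edgeR). In RTX430 it stood at 21 ± 2.83, 21.6 ± 5.16, 7.76 ± 1.11 and 17.2 ± 0.804 CPM from ZT1 to ZT15 (SD, n = 3). In SC224 it was at 68.3 ± 15.8, 40.0 ± 6.6, 7.22 ± 2.06 and 4.32 ± 1.34 CPM. The means lay within 1 SD of each other at ZT9, while RTX430 was the lower at ZT1 and the higher at ZT15. Sobic.006G089400 (adjusted p 5.43e-06 by edgeR) rose in RTX430 from 27 ± 5.37 CPM at ZT1 to 200 ± 45.2 CPM at ZT9, and stood at 98.2 ± 3.4 CPM at ZT15. In SC224 it was at 42.9 ± 12.4 CPM at ZT1, 78.5 ± 11.4 CPM at ZT9 and 86.4 ± 3.14 CPM at ZT15.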

How the data were processed

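PolyA RNA of leaves was sequenced as single-end reads of 75 nt. The authors deposited raw read counts for 34129 genes in 96 libraries. The submitters' processing notes name HISAT2 and DESeq2, without versions or roles. The counter, genome build, annotation and use of strand are not given in the sources used here, so genes that overlap or share reads with a near-identical copy are uncertain. No identifier of the 34129 matched the reference gene table (0 matches), so the gene lists by function and the leaf markers could not be applied.

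Tests on the deposited counts were run in edgeR 4.0.16 (R 4.3.3), with the 16 group means of the 48 cold-experiment libraries in 1 model, TMM scaling and filterByExpr (minimum count 10, minimum total 15). The heat experiment was fitted apart on 18648 genes. Replicates were compared and no pair was a duplicate. The members, lists and tests were chosen with earlier results of these data known. The genes named are, per time, the 2 with the largest smallest change among genes highest (mean of at least 10 CPM there) and lowest (mean of at least 10 CPM elsewhere), the 2 with the largest share, and the 2 steadiest. The rule allowed more (5 highest, 3 lowest, 5 by share and 3 steady), and fewer are printed since identifiers carry no names. The check of genotype labels was chosen after seeing the data. In the main fit, p-values set a difference against the spread between the deposited libraries within groups. That spread was estimated over all 48 libraries of the cold experiment, stressed ones included. The floor of 3 counts covers counting error only.

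In simulated counts with 200 genes changed 4-fold at ZT15, the joint test recovered 82% among 17887 genes, ZT15 against ZT1 80.5%, and the call of highest or lowest at ZT15 74%. At 2-fold these were 25%, 15.5% and 7.5% among 17924 genes. The changed genes were drawn above a minimum mean level, so recovery among the least abundant genes was not measured. With 200 genes changed, the adjustment was stricter than in the data, where 9213 genes were called. Counts were drawn independently for each gene, without variation shared between genes of a library. These rates therefore do not carry over directly to the data. The alternatives were RLE size factors, library totals, DESeq2 1.42.0, no filter, fewer libraries in the fit, a replicate block and leaving out each library.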

Additional observations from a re-analysis of the deposited data

Results flagged for a closer look

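A difference in daily course between the RTX430 and SC224 controls of the cold experiment was called in 105 genes. Some of these were near 0 in SC224 after ZT1 and scattered between its ZT1 libraries. The test was that of the difference itself, the joint time-by-genotype interaction of edgeR. The genes with the smallest adjusted p were Sobic.010G162500 (2.79e-06) and Sobic.006G089400 (5.43e-06). Apart from Sobic.008G065800, no other gene named above was among the 105. No test of outlying samples was run, as each group holds 3 libraries.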

How the results depend on the processing

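The joint test and 5 of the 6 pairs of times stayed within 1.5 times their counts under every alternative run. Library totals alone gave 492 genes highest and 3767 lowest at ZT1, 1145 highest and 220 lowest at ZT15, 53 interaction genes, and a log2 difference of 0.19 (adjusted p 0.735) in place of -0.57 for Sobic.001G177000 between ZT9 and ZT1, neither called. DESeq2 gave 282 interaction genes. A fit to the 12 libraries alone gave 804 genes for ZT9 against ZT6, 6 highest at ZT6, 99 highest and 110 lowest at ZT9, and 256 highest at ZT15. The 24 control libraries alone gave 7 interaction genes. Without the library farthest from its group at each day time, an alternative chosen after seeing the data, 43 genes were lowest at ZT6.

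The deviations of same-numbered libraries correlated above 0.1 in 11 of 18 pairs (median 0.16, from -0.443 to 0.617) and those of other pairs in 13 of 36 (median -0.107). Not every same-numbered pair did, and the numbers were not taken as a pairing. The deviations sum to 0 over the libraries of a time, so the pairs are not independent and cannot decide on a pairing. Every pair of replicate 1 libraries correlated above 0.1 (0.139 to 0.473), at most a hint from the data and not from the design. With the replicate block in the 12-library fit, 797 genes were called for ZT9 against ZT6, 9 were highest and 16 lowest at ZT6, and 102 highest and 120 lowest at ZT9. The joint test then called 7752. The block within genotype gave 16 interaction genes.

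Leaving out each library in turn gave 851 to 1329 genes for ZT9 against ZT6, 5 to 20 highest and 15 to 33 lowest at ZT6, and 94 to 165 highest and 115 to 201 lowest at ZT9. It gave 46 to 150 interaction genes and a difference of 16.2 to 21.7 points between ZT1 and ZT15 in the share of the 100 most abundant genes. For the 26 values of single genes, 498 of 516 alternatives kept direction and call, 17 lost the call and 1 turned. The cause of these changes was not tested. Recovery of 2-fold changes was low in simulation, where depth was not varied and only 200 genes were changed.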

Other observations

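Some abundant genes varied more between replicates than between times. These genes were picked after their values were seen, as those with the largest spread among the 100 most abundant genes of any time. Sobic.003G172800 held 1.42%, 0.0111% and 0.139% of the counts at ZT1, 1.47%, 0.28% and 0.0157% at ZT6, 0.807%, 0.0294% and 0.118% at ZT9, and 1.28%, 0.367% and 0.0233% at ZT15. Replicate 1 was the largest at all 4 times. Sobic.005G194400 moved with it, and the ratio of the former to the latter stayed between 0.974 and 1.59 over the 12 libraries. Their summed share was largest in replicate 1 at 3 of 4 times in the SC224 controls and in the RTX430 controls of the heat experiment, and at 0 of 4 in the Macia controls.

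A second pair was high in other libraries. Sobic.004G303500 held 2.99% of the counts in ZT1 replicate 3 and 2.54% in ZT9 replicate 3, and at most 0.377% in any other library. Its ratio to Sobic.009G082800 stayed between 1.41 and 1.76. Across all genes, 1 axis carried 47.1% of the variance between replicates of a time, with ZT1 replicate 3 (-0.484), ZT6 replicate 2 (-0.438) and ZT9 replicate 1 (0.465) farthest from their groups by their loadings. The part of this axis in the counts of called genes was not tested beyond the alternative without those libraries.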
